A study of Zea mays with 6 samples.

Results

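In mature maize pollen, 44 of 39625 gene models lay below 1 TPM in each control library and at 1 TPM or more in each heat library, with a heat mean at least 2 times the control mean. TPM, the unit of the deposited table, corrects reads for gene length and for the size of the library, and adds up to the same figure in every library. The genes were chosen by these TPM values in the 6 libraries, so heat against control is given for them as a description, without a test. Of 8615 gene models with enough signal to be tested, 2.60% had a heat mean at least 2 times the control mean. The gene hsp18c (GRMZM2G034157) also met the rule and is left out here. The working name for these genes was that they are switched on after heat, and the data go against it for nearly all of them. Reads were present in every control library for 42 of the 44, and none was at 0 in all 3 controls. They are therefore called low-level genes that crossed 1 TPM.

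Heat libraries came from plants of the inbred line B73 that were exposed for 48 h to days of 35 °C and nights of 25 °C while their pollen was at the tetrad stage. Control libraries came from B73 plants with days of 25 °C and nights of 21 °C. Humidity was 60% in both groups, and all plants finished pollen development in a greenhouse before RNA was taken from mature pollen. There were 3 libraries in each group, named as biological replicates in the labels. The labels do not say how many plants gave each library. Recovered reads numbered 19086616 to 19745003 in heat libraries and 20978451 to 28640667 in control libraries. Heat replicate 3 and all controls were run on lanes 3, 4 and 5, and heat replicates 1 and 2 on lanes 1 and 2.

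After meiosis, the 4 joined microspores of a tetrad separate and each divides into a vegetative cell and a generative cell, which later forms the sperm. Mature pollen stores transcripts that are used when the pollen tube grows. A transcript that differs in mature pollen may have been made at any point since the treatment, or kept from earlier. In whole pollen, fewer cells that hold a transcript and less of it in each cell cannot be told apart.

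The highest of the 44 genes after heat was GRMZM2G162396, a model without a match in the reference gene table. It had 4.30, 5.55 and 5.05 TPM in heat replicates 1, 2 and 3, against 0.978, 0.443 and 0.590 TPM in controls 1, 2 and 3. Every heat value was at least 4.39 times the highest control value. Over the whole set, heat means ran from 1.02 to 4.96 TPM with a median of 1.64 TPM, and control means from 0.0800 to 0.824 TPM with a median of 0.558 TPM. The ratio of the heat mean to the control mean ran from 2.01 to 12.8, with a median of 3.15. It reached 3 for 27 genes, 5 for 8 and 10 for 2. Only 2 genes, GRMZM2G162396 and EREB139, averaged at least 3 TPM after heat, and 13 averaged at least 2 TPM.

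**Figure D1:**
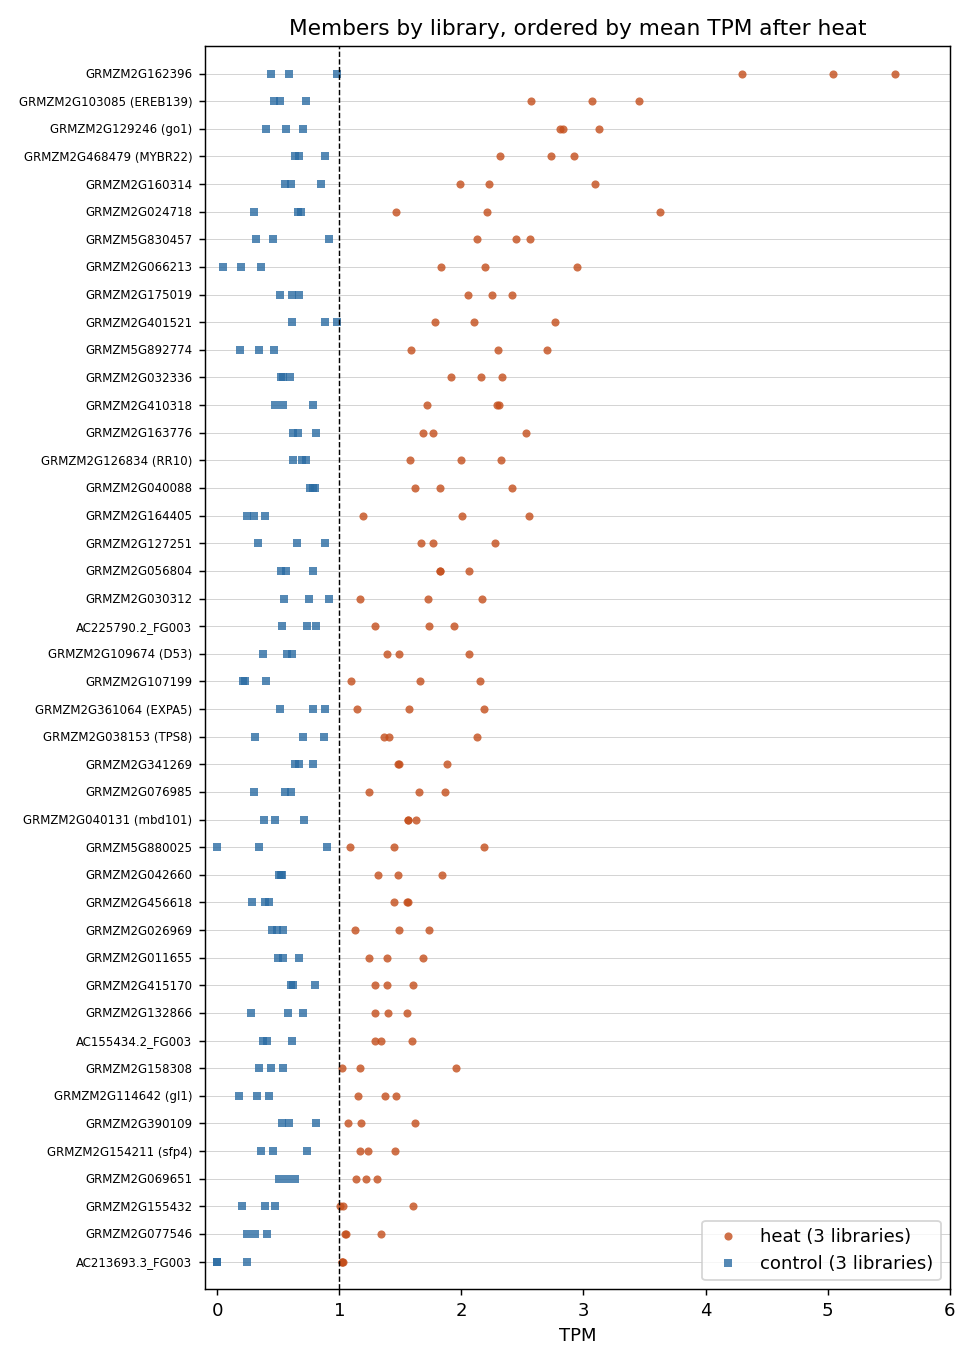
TPM of each of the 44 genes (rows, highest heat mean at the top) in the 3 heat libraries (circles) and the 3 control libraries (squares), with a dashed line at 1 TPM. Heat values run up to 5.55 TPM, in GRMZM2G162396, and most controls lie well above 0.

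The number of reads behind these values is small. Each gene had 11 to 381 reads over the 3 heat libraries, with a median of 105, and 1 to 129 reads over the 3 control libraries, with a median of 36. Fewer than 20 control reads in all were found for 6 genes. Together the 44 genes summed to 78.1, 86.3 and 81.7 TPM in heat replicates 1, 2 and 3, against 24.3, 22.6 and 24.1 TPM in controls 1, 2 and 3. The sum in heat thus varied between libraries by much less than it differed from control, a direction that the rule fixes.

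Gene names were taken from RefSeq for a later maize assembly, release 5.0 of the B73 reference. That table matched 27 of the 44 models (61.4%), 26 of them as protein-coding genes, against 68.0% of all genes tested below. A gene symbol was found for 10 models (22.7%), against 9.30% of all genes tested. For description, these 10 are split by name into regulators of transcription or hormone signalling and other genes. The split was not compared with that of all genes. The remaining matched model, GRMZM2G011655, is listed as a transcribed pseudogene, and had 1.39, 1.69 and 1.25 TPM in heat, against 0.538, 0.495 and 0.671 TPM in control.

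Among the regulators, EREB139 (GRMZM2G103085) belongs to the AP2/EREB family of DNA-binding proteins, whose members take part in responses to ethylene, drought and temperature. It had 3.45, 2.57 and 3.07 TPM in heat, against 0.463, 0.727 and 0.510 TPM in control. The lowest heat value was 3.54 times the highest control value. The fitted difference was 1.36 on the log2(TPM + 1) scale (SE 0.13, n = 3 each), from 134 reads in heat and 31 in control.

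MYBR22 (GRMZM2G468479), a member of the MYB-related family of transcription factors, had the most reads of all 44 genes, 381 in heat and 129 in control. Its level was 2.73, 2.32 and 2.92 TPM in heat, against 0.670, 0.638 and 0.885 TPM in control. The libraries of a group lay close together, and the difference was 1.08 on the log2 scale (SE 0.13).

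RR10 (GRMZM2G126834) is a response regulator, of the family that passes on the cytokinin signal. It had 2.32, 2.00 and 1.58 TPM in heat, against 0.693, 0.730 and 0.617 TPM in control. The controls varied little, while heat replicate 3 lay below the other heat libraries.

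D53 (GRMZM2G109674) carries the name of a rice protein that represses strigolactone signalling until it is degraded. It had 1.39, 2.07 and 1.49 TPM in heat, against 0.609, 0.377 and 0.573 TPM in control. Heat replicate 2 was the highest and control replicate 2 the lowest of the 6 libraries.

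The methyl-CpG-binding domain gene mbd101 (GRMZM2G040131), named for a protein domain that can bind methylated DNA, had 1.56, 1.56 and 1.63 TPM in heat, against 0.474, 0.382 and 0.707 TPM in control. Its heat libraries had a coefficient of variation of 2.51%, against a median of 17.1% over the 44 genes, and its controls 32.2%. These rest on 27, 27 and 28 reads in heat and 12, 8 and 13 in control. With so few reads, the closeness of the heat libraries is not read as steadiness.

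Among the other genes with a symbol, go1 (GRMZM2G129246) encodes glycolate oxidase, a peroxisomal enzyme of photorespiration. It had 3.13, 2.81 and 2.83 TPM in heat, against 0.700, 0.564 and 0.396 TPM in control. The ratio of means was 5.28 and the log2 difference 1.34 (SE 0.13), from 333 reads in heat and 81 in control, which makes it one of the better measured of these genes. The 15 models of the green tissue list, among them the small subunit of Rubisco and light-harvesting proteins, summed to 1.30 to 1.98 TPM in heat and 1.56 to 2.53 TPM in control. The ranges overlapped. Of these 15, 3 had no read in any library, and none passed the filter, so none was tested.

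The glossy gene gl1 (GRMZM2G114642) is needed for the wax layer of the seedling leaf. It had 1.46, 1.15 and 1.38 TPM in heat, against 0.322, 0.428 and 0.177 TPM in control, a ratio of means of 4.30. The only other model matched to a glossy symbol was near 0 in every library. Its only value above 0 was 0.0288 TPM, in control replicate 2. A symbol was found for 2854 of 39625 models, so other glossy genes may have been missed.

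EXPA5 (GRMZM2G361064) encodes an alpha-expansin, a protein that loosens plant cell walls. It had 2.19, 1.15 and 1.57 TPM in heat, against 0.783, 0.516 and 0.883 TPM in control. The groups came close: the lowest heat value was 1.30 times the highest control value, and the ratio of means was 2.25.

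TPS8 (GRMZM2G038153), named in the terpene synthase series, had 1.37, 1.41 and 2.12 TPM in heat, against 0.876, 0.307 and 0.701 TPM in control. Heat replicate 3 was well above the other heat libraries, and the log2 difference was 0.70 (SE 0.16).

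The gene sfp4 (GRMZM2G154211) had 1.17, 1.46 and 1.23 TPM in heat, against 0.737, 0.458 and 0.357 TPM in control. It was the lowest of the genes with a symbol after heat, at a mean of 1.29 TPM.

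**Figure D2:**
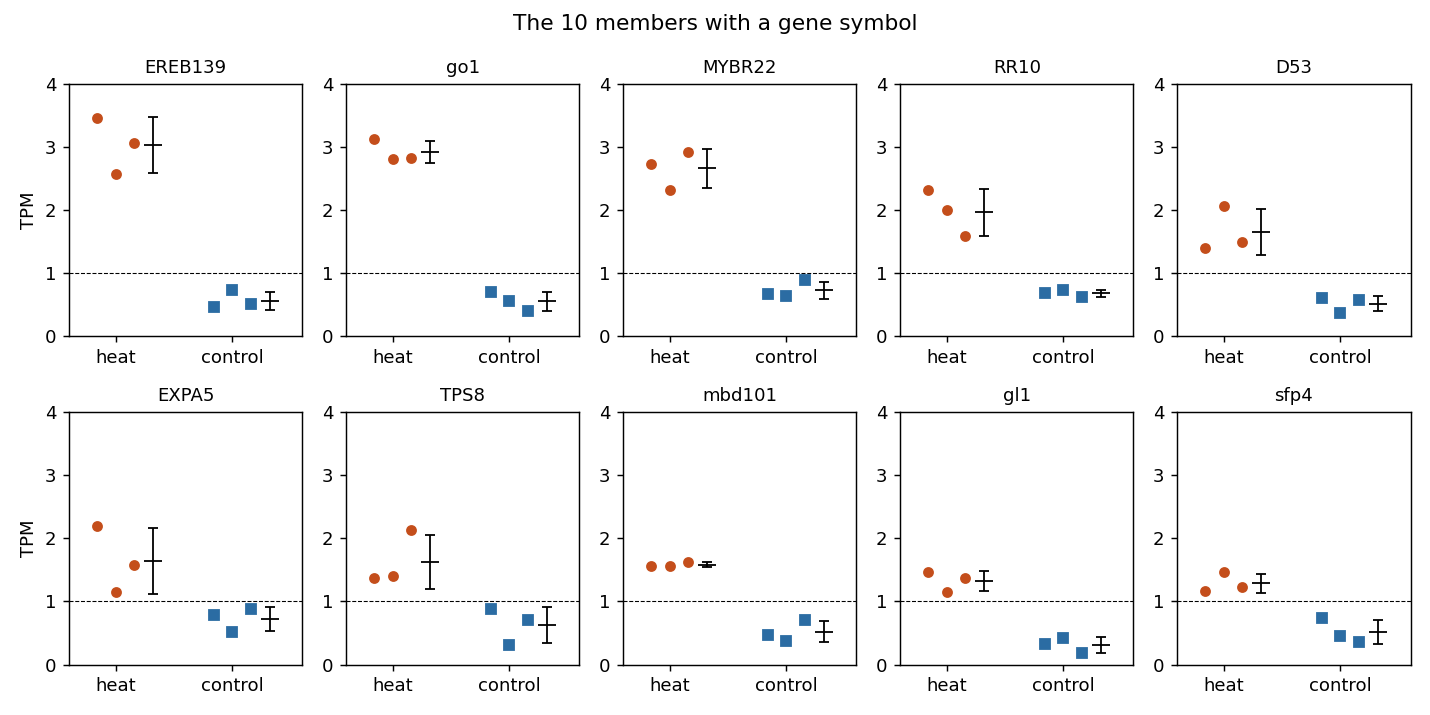
TPM of the 10 genes with a symbol, with the 3 heat libraries (circles, replicates 1 to 3 from left to right) beside the 3 control libraries (squares), bars for mean ± SD and a dashed line at 1 TPM. EREB139, go1 and MYBR22 average 2.66 to 3.03 TPM after heat, while gl1 and sfp4 average 1.33 and 1.29 TPM.

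The largest ratios of means belonged to genes without a symbol. In AC213693.3_FG003, a short model of 324 bases, 4 reads were found in each heat library, against 0, 0 and 1 in controls 1, 2 and 3. With so few reads, the ratio of pooled reads per depth was 15.0 with a 95% exact interval from 2.22 to 640.5, which covers counting error only. The rule chose the gene on these same values, so the interval is no test of a difference. GRMZM2G066213 rests on more reads, 144 in heat and 16 in control. It had 1.84, 2.95 and 2.19 TPM in heat, against 0.198, 0.359 and 0.0455 TPM in control, a ratio of means of 11.6. Among the 44 it had the widest gap between groups, with the lowest heat value 5.11 times the highest control value.

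GRMZM5G892774 had 2.30, 2.70 and 1.59 TPM in heat, against 0.338, 0.186 and 0.467 TPM in control, a ratio of 6.65. GRMZM2G164405 had 1.20, 2.55 and 2.01 TPM in heat, against 0.245, 0.395 and 0.301 TPM in control, a ratio of 6.12. GRMZM2G107199 had 1.10, 2.16 and 1.66 TPM in heat, against 0.231, 0.209 and 0.398 TPM in control, a ratio of 5.86. In GRMZM2G164405 and GRMZM2G107199 heat replicate 1 was the lowest heat library, and heat replicate 2 was 2.13 and 1.96 times as high.

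Several further genes reached a heat mean of 2.1 TPM or more. GRMZM2G160314 had 1.99, 3.10 and 2.23 TPM in heat, against 0.605, 0.853 and 0.556 TPM in control. GRMZM2G024718 had 1.46, 3.62 and 2.21 TPM in heat, against 0.300, 0.665 and 0.689 TPM in control. It showed the widest spread among heat libraries of the 44 genes, with a coefficient of variation of 45.1%. GRMZM5G830457 had 2.45, 2.56 and 2.13 TPM in heat, against 0.913, 0.460 and 0.315 TPM in control, so that its controls varied more than its heat libraries. GRMZM2G401521 had 1.78, 2.76 and 2.10 TPM in heat, against 0.881, 0.609 and 0.983 TPM in control, and its highest control came within 0.02 TPM of the rule's limit. GRMZM2G032336 had 2.16, 2.34 and 1.92 TPM in heat, against 0.538, 0.524 and 0.598 TPM in control. With 252 reads in heat and 81 in control, its coefficient of variation was 9.83% in heat and 7.10% in control. At 25 to 31 reads in each control, this closeness is not read as steadiness.

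The other 22 genes had heat means from 1.15 to 2.11 TPM, control means from 0.320 to 0.780 TPM and ratios from 2.01 to 4.15. The shortest of the 44, GRMZM2G410318 with 144 bases, had 4, 3 and 4 reads in heat, against 2, 1 and 1 in control. Its ratio of pooled reads was 3.43, with a counting interval from 1.02 to 14.8. GRMZM5G880025, with 228 bases, had 3, 4 and 6 reads in heat, against 0, 3 and 1 in control, and a ratio of 4.06 with an interval from 1.25 to 17.1. For such low numbers the recovered reads are known only up to a common divisor. The rule chose both genes on these same values, which favours high ratios, so the intervals are no test of a difference. The median length of the 44 models was 1672.5 bases, against 1774 bases over all genes tested.

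The limits of the rule cut through a continuous spread of values. On the control side, GRMZM2G401521, GRMZM2G162396 and GRMZM2G030312 were just inside, with highest control values of 0.983, 0.978 and 0.916 TPM. GRMZM2G080176, GRMZM2G003033 and GRMZM2G064042 were just outside, with 1.01, 1.02 and 1.04 TPM. On the heat side, GRMZM2G155432, AC213693.3_FG003 and GRMZM2G158308 were just inside, with lowest heat values of 1.00, 1.02 and 1.02 TPM. GRMZM2G011777, GRMZM2G587327 and the laccase gene Laccase-17 (GRMZM2G072808) were just outside, with 0.978, 0.978 and 0.968 TPM. By ratio of means, GRMZM2G390109, GRMZM2G415170 and GRMZM2G069651 were inside at 2.01, 2.12 and 2.14. The auxin synthesis gene yuc (GRMZM2G091819), GRMZM2G473367 and AC199873.4_FG002 were outside at 1.97, 1.93 and 1.91.

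The question whether any gene truly went on from 0 can be put to the recovered reads. Of gene models without a read in any control, 58 had reads in each heat library. The highest of these, AC212185.3_FG004, had 2, 1 and 3 reads in heat, a mean of 0.718 TPM over a length of 231 bases. No gene model without control reads reached 1 TPM in all heat libraries. In the opposite direction, 183 models had no read in heat and reads in each control, but the controls were deeper. By control level, 30 of the 44 genes had a control mean between 0.5 and 1 TPM, 12 between 0.25 and 0.5, and 2 lower. These were 1.98%, 0.535% and, for the lowest bins, 0.0351% and 0.0137% of the models at that level with every control below 1 TPM. A lower control level needs a larger ratio to reach 1 TPM, so the order of these shares follows in part from the rule.

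Genes crossed 1 TPM in both directions. Without the condition on the ratio, 92 genes other than hsp18c crossed upward, and 92 genes lay below 1 TPM in each heat library and at or above it in each control. With a ratio of at least 2, the numbers were 44 upward and 65 downward. They were 39 upward and 80 downward after scaling by median ratios, 45 and 93 without the 100 most abundant genes, and 49 and 63 after quantile normalization. The genes that crossed downward had a median ratio of control to heat mean of 3.13, and a highest control mean of 4.03 TPM. The downward number was 112 without heat replicate 1 and 109 without control replicate 2.

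**Figure D3:**
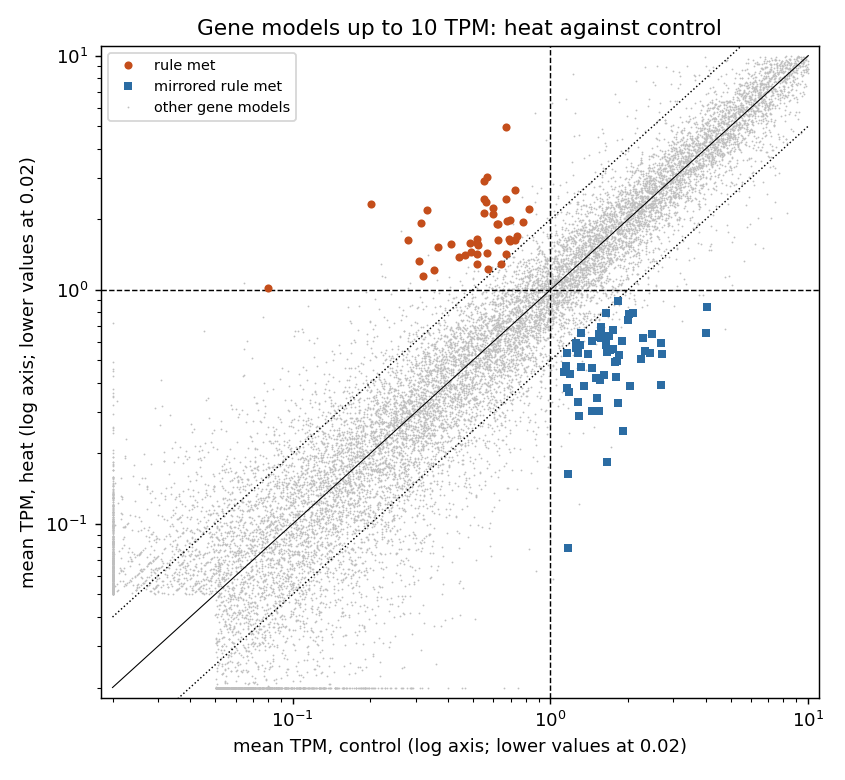
Mean heat TPM (y, log axis) against mean control TPM (x, log axis) for gene models with a mean above 0.05 TPM in heat or control and up to 10 TPM in both, with values below 0.02 drawn at 0.02; dashed lines mark 1 TPM, dotted lines a ratio of 2 and the solid line equality. The 44 genes (circles) sit above the upper dotted line with control means of 0.0800 to 0.824 TPM, and the 65 genes that met the mirrored rule (squares) sit below the lower one; hsp18c is drawn among the other models.

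For the background, limma was run on log2(TPM + 1) over every gene that reached 1 TPM in 3 or more libraries, 8615 in all. The 44 genes passed that filter only through their heat libraries. Limma with Benjamini-Hochberg adjustment at 0.05 called 20.2% of the tested genes, 1123 higher and 616 lower, and the higher ones made up 13.0%. The split was 902 higher and 847 lower after scaling by median ratios, 894 and 874 without the 100 most abundant genes, and 868 and 956 after quantile normalization. All 44 genes were called higher, and nothing is read from this, since the rule used the same contrast. All heat libraries lay above all controls for 23.2% of the tested genes, and by the rule for all 44. The median log2 difference was 0.81 over the 44 genes and 0.04 over all tested genes.

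Which heat library was the highest differed among the 44 genes. Heat replicate 2 was the highest of the heat libraries for 21 genes, replicate 3 for 14 and replicate 1 for 9. Replicates 1 and 2 were each the lowest for 17 genes. The coefficient of variation in heat had a median of 17.1%, close to the 15.7% over the 4216 gene models with a heat mean in the same range.

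The rule set a floor on every heat library and a ceiling on every control, so the ratios by lane that follow are largely fixed by it and are given as a description. Heat replicate 3, run on the same lanes as the controls, was at least 2 times the control mean for 42 of the 44 genes. The mean of heat replicates 1 and 2, from other lanes, was so for 42 as well. The median ratio to the control mean was 3.35 for heat replicate 3 and 3.19 for replicates 1 and 2. The ratio in replicate 3 was the lower for 22 of the 44 genes. In a fit that included the lane, the log2 difference of the 22 genes given one by one in the text ran from 0.57 to 1.87. It was lower than in the fit without the lane by more than the SD between libraries of a group for GRMZM5G892774 (0.97 with the lane, 1.25 without), RR10 (0.62 and 0.81) and GRMZM2G032336 (0.91 and 1.01), and higher for TPS8 (0.96 and 0.70). Over all tested genes, limma called 435 higher and 219 lower with the lane, against 1123 and 616 without it. The part of the lane in the levels of the 44 genes was not tested.

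**Figure D4:**
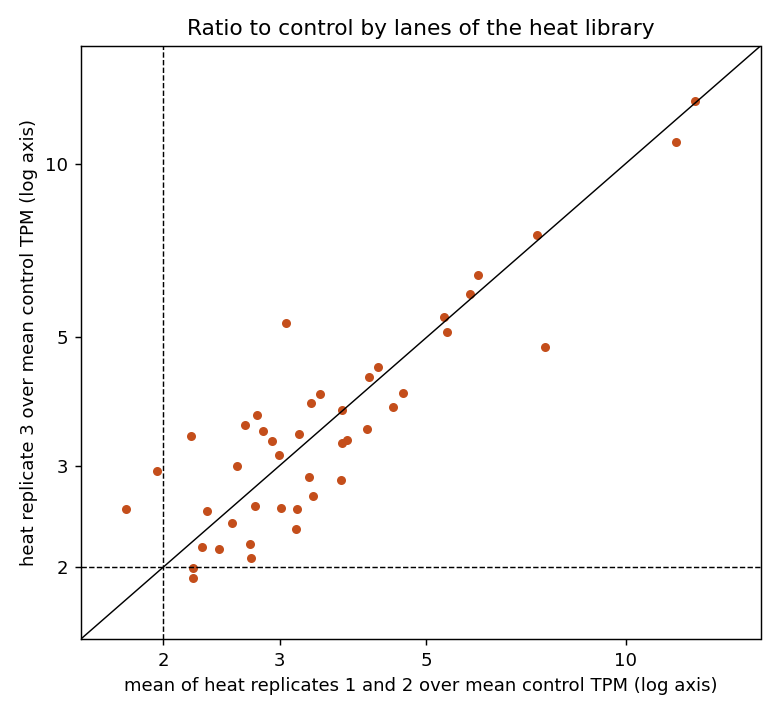
Ratio to the mean of the controls for each of the 44 genes, in heat replicate 3, run on the lanes of the controls (y, log axis), against the mean of heat replicates 1 and 2, run on other lanes (x, log axis); the solid line marks equality and dashed lines a ratio of 2. The points lie on both sides of the line, with medians of 3.35 for replicate 3 and 3.19 for replicates 1 and 2.

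The other members of the families of the genes with a symbol are given by their counts, beside 20.2% of all tested genes called in either direction and 13.0% called higher. Of 4 other EREB genes tested, EREB56 (GRMZM2G380377) rose, EREB179 (GRMZM2G129674) fell and 2 were not called. EREB179 had 39.1 ± 1.77 TPM in heat and 70.9 ± 6.35 TPM in control (SD, n = 3 each; limma adjusted p = 3.08e-05). EREB56 had 39.6 ± 3.65 TPM in heat and 30.1 ± 2.88 TPM in control (limma adjusted p = 0.0144). The call of EREB56 was lost without control replicate 1 (limma adjusted p = 0.0707), without heat replicate 2 (0.0560), without a filter (0.0572), after quantile normalization (0.0754) and with the lane as a covariate (0.180).

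Of 7 other MYB-related genes tested, MYBR95 (GRMZM2G115070) and MYBR26 (GRMZM2G112764) rose and 5 were not called. MYBR26 had 23.0 ± 2.59 TPM in heat and 14.8 ± 0.234 TPM in control (limma adjusted p = 0.00113). MYBR95 was higher by 2.30 on the log2 scale. Both calls held under all 16 alternatives run.

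The 2 other response regulators tested ran below control on average, though limma called neither. RR9 (GRMZM2G060485) had 1.68 ± 0.458 TPM in heat and 2.44 ± 0.359 TPM in control (limma adjusted p = 0.110). RR4 (GRMZM2G319187) had 5.86 ± 1.08 TPM in heat and 7.00 ± 0.802 TPM in control (limma adjusted p = 0.278). The unadjusted p was under 0.05 for 1 of them, RR9, and limma-voom on the recovered reads called 0. Of the 4 other methyl-CpG-binding domain genes tested, 0 were called by limma, 0 by limma-voom and 0 at an unadjusted p under 0.05. Their log2 differences lay between 0.02 and 0.13.

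Of 3 other sfp genes tested, sfp5 (GRMZM2G444801) rose, sfp1 (GRMZM2G159632) fell and 1 was not called. The gene sfp5 had 128.9 ± 10.2 TPM in heat and 90.4 ± 20.2 TPM in control (limma adjusted p = 0.0154). Its call was lost without a filter (limma adjusted p = 0.0899), after quantile normalization (0.101) and with the lane (0.145). The gene sfp1 had 0.717 ± 0.132 TPM in heat and 1.33 ± 0.0711 TPM in control (limma adjusted p = 0.0234). Its call was lost without control replicate 1 (limma adjusted p = 0.0840), control replicate 3 (0.0731) or heat replicate 2 (0.0881), without a filter (0.0815) and with the lane (0.220). The other TPS gene tested, TPS5 (GRMZM2G074309), rose, with 19.2 ± 2.00 TPM in heat and 13.4 ± 1.07 TPM in control (limma adjusted p = 0.0050, and 0.102 with the lane).

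Lists were matched by symbol, so only the 10 of the 44 genes with a symbol could appear in them. None of these 10 was in the heat shock protein and heat shock factor list. Of its 8 tested genes 3 rose, 2 fell and 3 were not called. The shares of all tested genes were 20.2% called in either direction and 13.0% called higher. As hsp18c met the rule, its direction was fixed in advance. The rises were hsp18c, which met the rule, hsp101 (GRMZM2G360681) and Hsf01 (GRMZM2G165998), and the falls Hsf05 (GRMZM2G132971) and the small heat shock gene HSP18 (GRMZM2G404249). Leaving out control replicate 2 (limma adjusted p = 0.0504), control replicate 3 (0.0555) or heat replicate 2 (0.0513) ended the call of hsp101, as did quantile normalization (0.310), the lane (0.234) and testing without a filter (0.0509). That of Hsf05 was lost without any of 5 of the 6 libraries (0.0520 to 0.0935), without a filter (0.0770) and with the lane (0.334). With the lane, Hsf01 (limma adjusted p = 0.134) and HSP18 (0.0611) were not called either. Other families of transcription factors (MYB, bHLH, NAC, WRKY, bZIP and homeobox genes) held none of the 10 with a symbol either. Of their 19 tested genes, MYB-IF35 (GRMZM2G051256), bHLH172 (GRMZM2G017586) and ms32 rose, NAC1 (GRMZM2G347043) fell and 15 were not called. Beside these counts stand the same 20.2% and 13.0% of all tested genes, and nothing is read from them. The call of bHLH172 was lost after quantile normalization (limma adjusted p = 0.345) and with the lane (0.0668).

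Of the tapetum, green tissue and kernel lists only ms32 and ms26 averaged above 1 TPM in either group. The heat mean of ms32, given below, lay above the median heat mean of the 44 genes, 1.64 TPM. Of the 10 matched models of the pollen list, such as mgs1, EXPB1 and the profilins, 9 passed the filter. Of these, 3 were higher, 1 lower and 5 not called, beside 20.2% of all tested genes called in either direction. The anther wall and tapetum list, of the tissue that feeds developing pollen, had 5 matched models, and its other symbols found no match. The 5 models summed to 4.02 to 4.49 TPM in heat and 2.66 to 3.38 TPM in control, ranges that did not overlap. Of the 5, ocl4 had no read in any library and ms23 and ms8 averaged under 0.2 TPM in either group. The gene ms32 (GRMZM2G163233), a bHLH gene needed for the tapetum, rose to 3.17 ± 0.111 TPM in heat, against 1.62 ± 0.222 TPM in control (limma adjusted p = 0.0021, and 0.0602 with the lane). The gene ms26 (GRMZM2G091822) had 0.886 ± 0.262 TPM in heat and 1.25 ± 0.0572 TPM in control, and limma did not call it. The part of such tissue in the levels of the 44 genes was not tested. The 10 models of kernel storage genes summed to at most 0.0517 TPM in heat and 0.0822 TPM in control.

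For 3 of the 44 genes the reference table joins the model with another model into 1 gene. The 44 genes were chosen for their rise and the partners were not. A smaller ratio in a partner follows in part from that choice. None of the partners passed the filter. GRMZM2G341269 had 1.48, 1.88 and 1.49 TPM in heat, against 0.781, 0.667 and 0.634 TPM in control. Its partner GRMZM2G341271 had 0.779, 0.668 and 0.740 TPM in heat, against 0.578, 0.717 and 0.566 TPM in control, with overlapping groups. GRMZM2G456618 had 1.55, 1.45 and 1.56 TPM in heat, against 0.283, 0.427 and 0.390 TPM in control. Its partner GRMZM2G156174 had 0.665, 0.690 and 0.489 TPM in heat, against 0.541, 0.359 and 0.698 TPM in control. The ratio of means was 1.18 for GRMZM2G341271 and 1.15 for GRMZM2G156174, against 2.33 and 4.15 for the models beside them. The partner of mbd101, GRMZM5G847045, had a single read, in control replicate 3, too few to show a change. The difference between partners was not tested.

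Of the 44 genes, 27 could be placed by the reference table. Among these, the nearest pair, GRMZM2G163776 and EREB139, had 9 other genes between them, and the next, RR10 and GRMZM2G024718, had 19. GRMZM2G163776 had 2.53, 1.68 and 1.77 TPM in heat, against 0.623, 0.811 and 0.661 TPM in control. Among the genes directly beside the 27, 19 could be matched to models and 3 passed the filter. Of these 3, 1 rose and 2 were not called, beside 20.2% of all tested genes called in either direction. The gene that rose was SIP2-1 (GRMZM2G175038), an aquaporin gene beside GRMZM2G175019. SIP2-1 had 20.4 ± 2.56 TPM in heat and 11.7 ± 1.19 TPM in control (log2 difference 0.75, SE 0.11, limma adjusted p = 6e-04), and its call held under all 16 alternatives. GRMZM2G175019 had 2.05, 2.41 and 2.25 TPM in heat, against 0.610, 0.516 and 0.673 TPM in control. Whether reads of one extend into the other was not tested. Next to EREB139 lay lhcb4, a light-harvesting gene without a read in any library, and GRMZM2G103055, at 0.0322 ± 0.0278 TPM in heat and 0.0394 ± 0.00625 TPM in control.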

How the data were processed

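The deposited table holds TPM per gene model and library, made by the authors from mature pollen RNA, and was used as deposited. The submitters' processing notes name STAR 2.5.2a, Trimmomatic 0.35, featureCounts, FastQC and DESeq2, with the build B73 RefGen_v3; their roles, the strand setting and the handling of multiply mapping reads are not given in the sources used here. Near-identical, overlapping or antisense genes can share reads. Deposited sample sheets give the lanes.

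Whole reads and gene lengths were recovered from ratios of TPM for all 24654 models above 0, within 0.0001 reads, and describe depth. Genes with 1 TPM or more in 3 of 6 libraries were tested with limma 3.58.1 in R 4.3.3 on log2(TPM + 1), with an intensity trend, two-sided, with Benjamini-Hochberg adjustment over 8615 genes at 0.05; fold changes on this scale understate those of low genes. Recovery and test were tested on simulated data. p-values measure the spread between these libraries. The members and lists were chosen with earlier results of these data known.

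Genes named are all members with a symbol, the 12 with the highest heat mean, the 6 with the largest ratio, those nearest the limits of the rule, and called genes of the lists; GRMZM2G410318, GRMZM5G880025, GRMZM2G011655, GRMZM2G163776, the joined models, RR4, RR9 and AC212185.3_FG004 were picked for their values or place. RefSeq matched 19060 of 39625 models, 521 of them to more than 1 gene. Alternatives were other limits, pseudocounts, filters, scalings, the lane or replicate number as covariates, limma-voom on recovered reads and leaving out each library. No pair of libraries of a group was within sampling noise (smallest chi-square per degree of freedom 5.24).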

Additional observations from a re-analysis of the deposited data

How the results depend on the processing

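The number of genes that met the rule was 44; it was 92 without a condition on the ratio of means and 12 with a ratio of at least 4. Leaving out 1 library gave 50 to 62 genes, which shared 42 to 44 with the 44, and fewer libraries make the rule easier to meet. Limits of 0.5 and 2 TPM gave 50 and 42 genes, but shared 9 and 6 with the 44, so the members are set by the limit. TPM without the 100 most abundant genes, which raises all other values by 2.13 to 2.30 times, gave 45 genes with 7 shared. Median ratios gave 39 genes, all of them shared, and quantile normalization 49 with 44 shared.

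The mirrored rule gave 65 genes, 38 at a limit of 2 TPM, 19 with a ratio of at least 4, 80 after median ratios, 93 without the 100 most abundant genes (7 shared) and 63 after quantile normalization; without single libraries it gave 67 to 112. The 1123 higher and 616 lower genes of the limma test became 742 higher without a filter, 435 higher and 219 lower with the lane, and 956 lower after quantile normalization. Without single libraries they ran from 813 to 1138 higher and from 374 to 682 lower, with 374 without control replicate 1 and 391 without control replicate 3. Replicate numbers are shared between groups, but same-numbered libraries did not deviate together (r = 0.119, 0.13 and -0.0505 for replicates 1, 2 and 3), so they were not taken as pairs; the replicate block gave 1118 higher and 667 lower. The difference in the summed TPM of the 44 genes, 58.4 TPM, was 123.1 TPM without the 100 most abundant genes and 54.1 TPM without the most abundant member, and 56.3 to 60.3 TPM without single libraries. Of 285 recomputed differences of 22 members, 0 reversed, 218 stayed within 1 SD and 67 moved further, 44 of these with another pseudocount. The rule placed every heat library above every control for these genes. A reversal was thus largely excluded in advance, and nothing is read from its absence. For the low members depth is the limit, at 11 to 13 heat reads over 3 libraries.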
